A study of Mus with 2 samples.

Results

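Ccl1, Ccl11, Ccl17, Ccl22 and Ccl24 are the 5 mouse CC chemokines of type 2 responses considered here, taken by name as ligands of CCR3, CCR4 and CCR8. They are 5 of 20056 genes with a matched probe. BMDMs (macrophages grown from the bone marrow of 10-week-old male C57BL6/J mice in 10 ng/mL of M-CSF for 7 d) were kept for 24 h in IL-4 at 10 ng/mL, the M2 condition, together with either 10 µM GW4064, a synthetic agonist of the bile acid receptor FXR, or its solvent DMSO. The title, source and treatment labels of the GW4064 sample name GW4064, while its free-text description repeats that of the DMSO sample. RNA of each condition was read on 1 one-colour Agilent array, so neither an error between replicates nor a p-value can be given, and the precision of every value is limited by there being 2 arrays. Both groups received IL-4, so the comparison addresses what GW4064 adds to M2 conditions, and a culture without IL-4 was not analysed here. Whether the cultures came from the same animal was not given in the sources used here.

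Chemokines are small secreted proteins that direct leukocytes to a tissue through G protein-coupled receptors on the responding cell. Type 2 responses, such as those to helminths, chitin and allergens, use a group of them. Ccl11 (eotaxin) and Ccl24 attract eosinophils through CCR3, Ccl17 and Ccl22 attract Th2 and regulatory T cells through CCR4, and Ccl1 acts on CCR8. IL-4 and IL-13, acting through STAT6, are known inducers of Ccl17, Ccl22 and Ccl24 in macrophages and of Ccl11 in fibroblasts and epithelium.

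Of the 5 chemokines, the CCR4 ligands Ccl17 and Ccl22 gave a brighter spot with GW4064 by 1.52-fold and by 1.96-fold, and the CCR3 ligand Ccl24 by 1.16-fold. Ccl11 and Ccl1 were not well above background on either array, so no fold is given for them. With each array scaled to its 75th percentile, the differences of Ccl17 and Ccl24 were under 2-fold. The value of Ccl22 came from a DMSO spot not well above background and does not say whether 2-fold was reached. With another background correction (normexp), the value of Ccl22 was 0.28 on the log2 scale, or 1.21-fold. Normexp was run with an offset of 50, which draws dim probes together. The part of the correction itself in this smaller value can therefore not be told from that of the offset. Of all 13530 genes measured, 2.04% were higher with GW4064 by 2-fold or more and 2.71% were lower by as much. Since Ccl22 entered this count only through the array on which it was bright, the number of members on the higher side is given as a description.

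The signal is the brightness of a spot as corrected by the scanner software for background and for gradients across the slide. The software gives an error for each spot, printed after ± below. Every member had 1 probe printed once, and no member spot was marked as uneven or saturated. For differences, the log2 of the signal minus the 75th percentile of its array (a signal of 1209 with DMSO and 1265 with GW4064) was used. A probe counts as well above background where the software marked it so, and the lowest such signal was 15.7 with DMSO and 15.1 with GW4064. The negative-control spots, whose sequence matches no mouse transcript, numbered 153 on each array. Those without an outlier mark (137 and 134) had signals of 3.14 to 5.23 with DMSO and 3.01 to 5.16 with GW4064. Of all negative-control spots 8 on each array were well above background, and each of those 8 was marked as uneven or as a population outlier. Of these marks, the software can set the population outlier only for a probe with copies.

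Ccl17 (TARC), matched to NM_011332, had a signal of 198 ± 20.0 with DMSO and 314 ± 31.5 with GW4064. Both spots were well above background. The log2 difference was 0.60 with a software error of 0.21, and probes printed 10 times at a similar level had a median SD of 0.099 between copies. This SD holds only the error from spot to spot on these arrays, and none from culture, RNA or labelling. Of all genes measured, 4.24% had a difference as high as that of Ccl17 or higher.

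Ccl22 (MDC), the other CCR4 ligand, matched to NM_009137, had a signal of 17.2 ± 4.65 with DMSO and 35.3 ± 5.24 with GW4064. It was well above background with GW4064 only. Its DMSO signal differed significantly from the local background by the software's pixel test without reaching the stricter mark. This DMSO signal lay above the lowest signal well above background, so it was used as it stood. Set against it, Ccl22 was 1.96-fold higher with GW4064, a log2 difference of 0.97 that is not a bound. With the normexp background correction the value was 0.28, and without the areas of clustered large differences described next it could not be given. The software error of this difference was 0.44, and the copies of probes at this level had a median SD of 0.30. The spot of Ccl22 lay in an area of the slide where single spots often differed strongly, with 3 such neighbours of at least 8-fold within 300 µm. Such areas, with 2 or more of these spots, covered 16.5% of the spots, and the part of this area in the value of Ccl22 was not tested.

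Ccl24 (eotaxin-2), matched to NM_019577, had a signal of 291 ± 29.3 with DMSO and 352 ± 35.3 with GW4064, both well above background. The log2 difference of 0.21 was as large as its software error of 0.21 and 2.31 times the SD of 0.090 between copies of probes at this level. It was the smallest difference of the 3 members measured, and 16.3% of all genes measured had as high a difference. With centring on the spike-in RNA, which is added as a labelling control, instead, the difference of Ccl24 was 0.017, with the median of all genes at -0.18 on that scale.

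Ccl11, matched to NM_011330, had a signal of 3.17 ± 3.16 with DMSO and 3.04 ± 3.03 with GW4064. On each array this lay within the range of the negative-control spots. Ccl11 was thus not detected above background in either culture, which sets no bound on a difference between them.

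Ccl1, matched to NM_011329, had a signal of 14 ± 3.87 with DMSO and 3.37 ± 3.35 with GW4064. The DMSO spot was above its local background by the software's pixel test but not well above background, and the GW4064 spot was neither. Probes printed 10 times at this level had a median SD of 0.73 in the log2 difference between their copies. No fold is given for Ccl1.

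**Figure D1:**
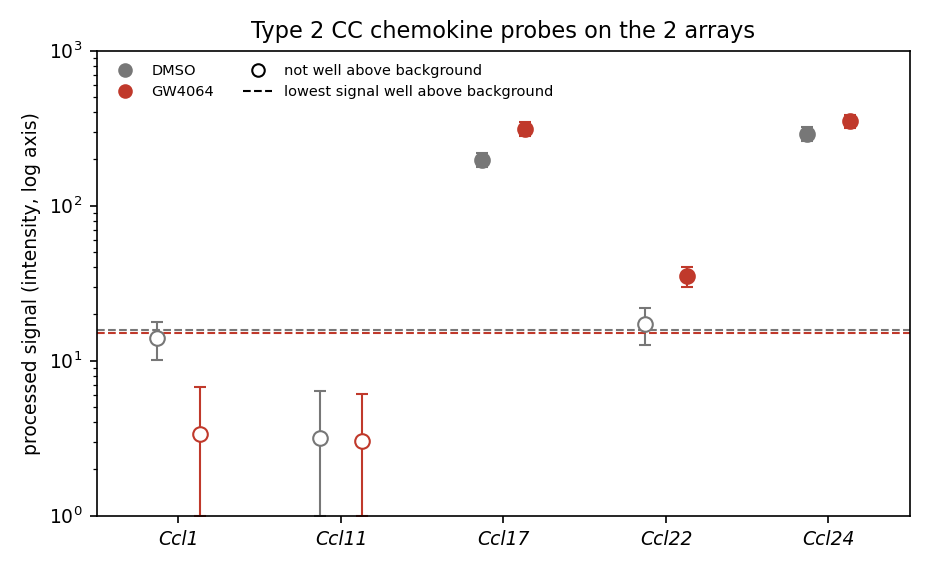
Processed signal (intensity, log axis) of the probe of each of the 5 chemokines with DMSO (grey) and GW4064 (red), 1 spot per array. Bars are the scanner software's error of the spot and run below the axis where the error is as large as the signal, open circles are not well above background, and dashed lines are the lowest signals well above background (15.7 and 15.1). Ccl17 and Ccl24 stand above these lines on both arrays, Ccl22 is marked well above background with GW4064 only, and Ccl1 and Ccl11 lie below the lines.

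Among the measured members the differences of Ccl17 and Ccl24, read at similar signals, were 0.39 apart on the log2 scale, against a combined SD between copies of 0.13 and a combined software error of 0.29. Ccl22 and Ccl17 were 0.37 apart, against 0.32 and 0.49. The order of Ccl22 and Ccl17 is therefore within the error the software gives for these spots. Around each of the 5 spots, the other spots within 5 rows and columns had a median log2 difference below 0. It was -0.16 around Ccl17, -0.15 around Ccl22, -0.11 around Ccl24, -0.084 around Ccl11 and -0.072 around Ccl1. These medians include dim spots. With no filter on dim probes the median of all genes was below 0 as well, at -0.059, so the sign is not particular to these places. Apart from Ccl22, none of the members had another spot differing 8-fold or more within 300 µm.

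Ccl22 and Ccl17 are neighbours on the chromosome in GRCm38.p6 with only Cx3cl1, the gene of a chemokine of another class, between them. Cx3cl1 was lower with GW4064, with a log2 difference of -0.49, while Ccl17 was higher with 0.60. The direction of Ccl22 was in part set by the filter, which it passed only through the GW4064 array, so it is not set against Cx3cl1. Beyond Ccl22 and Ccl17, Ciapin1 had 0.15, Coq9 -0.0056 and Arl2bp -0.072, and Pllp was at background on both arrays. Ccl24 lies beside Ccl26, which had a difference of 0.12, and Rhbdd2, which had 0.083. Ccl11 and Ccl1 lie in a cluster with the genes of monocyte-attracting chemokines. There, Ccl11 was at background between Ccl7 (0.82) and Ccl12 (0.53), and Ccl1 was not well above background beside Ccl8 (-0.47). These genes were taken by position, from the 3 protein-coding genes on each side. The others near Ccl17, Ccl22 and Ccl24 were Tmem120a (0.27), Hip1 (-0.12), Polr2c (0.10), Rspry1 (0.10), Por (0.079) and Pom121 (0.049). Near Ccl11 and Ccl1 they were Ccl2 (1.09), Zfp830 (0.10) and Cct6b (0.15, well above background with GW4064 only), and the rest had no value.

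The receptors of the members were largely not detected in these macrophages. Ccr4 had signals of 3.53 with DMSO and 3.25 with GW4064, close to those of the negative-control spots. Neither probe of Ccr8 was well above background on either array. Ccr3 was well above background on both, with signals of 1198 and 1547 and a log2 difference of 0.30. Of the genes that remove or trim chemokines, the atypical receptors Ackr1 and Ackr2 and the protease gene Dpp4 were not well above background on either array. Ccrl2, an atypical receptor that binds chemerin, had signals of 279 and 484 and a log2 difference of 0.73. Of the 7 genes of this list 2 were thus measured, and 0 differed 2-fold, beside 2.04% higher and 2.71% lower by as much among all genes.

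Some CC chemokines outside the type 2 group also bind CCR3 or CCR8. Those named here are examples and not a full list, so they do not stand for the ligands as a set. Ccl5 (RANTES), which binds CCR3, had signals of 446 with DMSO and 1311 with GW4064, a log2 difference of 1.49. Ccl7, which binds CCR2 and CCR3, had 20383 and 37672, a difference of 0.82. Ccl8, which in the mouse acts through CCR8, was the only CC chemokine measured that was lower, with signals of 109 and 82.2 and a difference of -0.47. Thus among CCR8 ligands, Ccl8 was lower with GW4064 and Ccl1 was not measured.

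Of 19 CC chemokines outside the members, 15 had a matched probe and 13 were measured, of which 12 were higher and 1 was lower with GW4064, against 51.6% higher among all genes measured. Centred on the spike-in RNA, 9 were higher and 4 lower, since Ccl19, Ccl26 and Ccl27a, with differences of 0.11, 0.12 and 0.16, were then below 0. Their median log2 difference was 0.46, beside 0.0068 for all genes. Of the 13, 3 were higher by at least 2-fold, namely Ccl5, Ccl6 (1.13) and Ccl2 (1.09), and 0 were lower by as much, beside 2.04% and 2.71% of all genes. With spike-in centring, Ccl6 (0.941) and Ccl2 (0.903) were under 2-fold, and of the 3 only Ccl5 stayed past it. For Ccl2, the paper reports by qPCR that GW4064 gave no induction under M2 conditions. The monocyte chemoattractant Ccl2 had signals of 36362 and 81201, and its spot had 2 other 8-fold differences within 300 µm. The remaining values were 0.53 for Ccl12 and for Ccl4, whose spot had 7 such neighbours, 0.46 for Ccl9, 0.29 for Ccl25 and 0.28 for Ccl3. Ccl19 had up to 8 such neighbours, Ccl26 4, Ccl25 and Ccl27a up to 3 and Ccl9 2. Ccl19 (32.0 and 36.2) and Ccl26 (17.6 and 20.0) were also dim, near the lowest signals well above background. Ccl20 and Ccl28 were not well above background on either array. By difference alone, over 2 arrays, the CC chemokines closest to Ccl17 were Ccl12 and Ccl4, those closest to Ccl22 were Ccl2 and Ccl7, and those closest to Ccl24 were Ccl27a and Ccl3. With 1 difference per gene, this is no more than a place in an order.

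**Figure D2:**
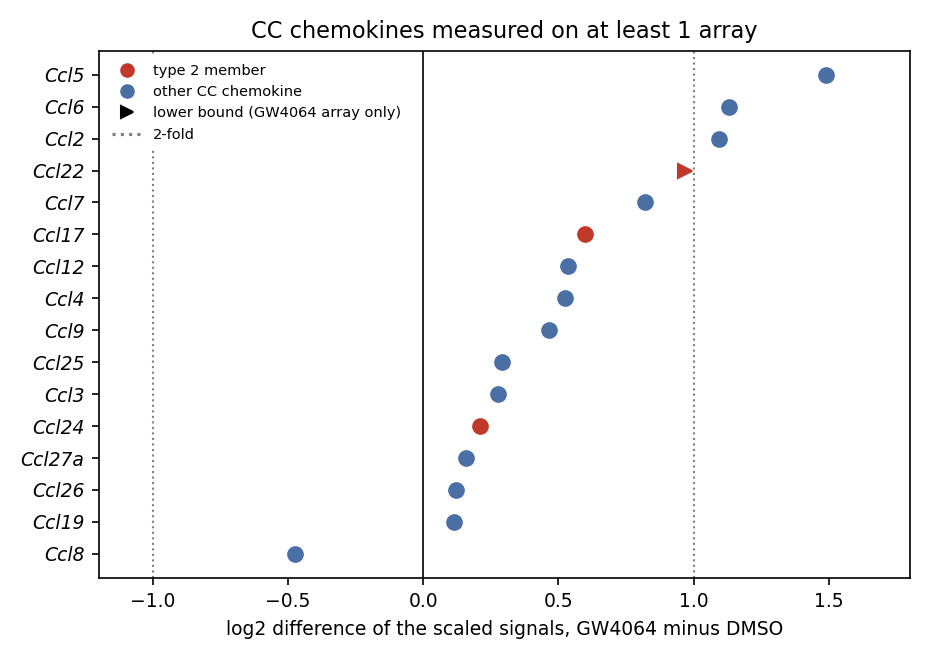
Log2 difference of the scaled signals (GW4064 minus DMSO, x axis) of the 16 CC chemokines measured on at least 1 array, in order of the difference, with members in red and the other CC chemokines in blue. The triangle marks Ccl22 (0.97) as well above background on the GW4064 array only. The key calls it a lower bound, but the value is the plain difference. Dotted lines mark 2-fold, and only Ccl8 (-0.47) lies to the left of 0. Ccl22, Ccl17 (0.60) and Ccl24 (0.21) lie among the other CC chemokines.

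The type 2 chemokines are known targets of IL-4, so the genes of its receptor pathway were set beside them. All 15 genes of this list were measured, 14 were lower and 1 was higher with GW4064, and 0 differed 2-fold. Of all 13530 genes measured 6520 were lower, and 2.04% were higher and 2.71% lower by 2-fold or more. The 1 higher gene, Il2rg, had a difference of 0.0086 and was below 0 with the arrays centred in any of the other 4 ways. The median log2 difference was -0.18, beside 0.0068 for all genes. The brightest genes of the list were Jak1, a kinase of the receptor complex, with -0.16, and Pparg, a nuclear receptor induced by IL-4, with -0.30. Stat6, the transcription factor of the pathway, differed by -0.01 as the mean of 3 probes, the receptor chain Il4ra by -0.15, the feedback inhibitor Socs1 by -0.53 and Irf4 by -0.48. The spots of Socs1, Pparg and Irf4 had 13, 5 and 4 other 8-fold differences within 300 µm. Stat6, Il4ra, Socs1 and Irf4 were chosen after their values were seen.

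Among 22 genes that IL-4 induces in mouse macrophages, 19 were measured, 14 were higher and 5 lower, with a median of 0.17, beside 51.6% higher and a median of 0.0068 for all genes. Centred on the spike-in RNA, 9 were higher and 10 lower, with a median of -0.022. Arg1, which breaks down arginine, had signals of 4875 and 72297 and a difference of 3.82, and Tgm2, a transglutaminase, had 2.30 as the mean of 2 probes. These were the 2 genes of the list past 2-fold on the higher side, and 0 were past it on the lower side, beside 2.04% and 2.71% of all genes. The lectin gene Mgl2, at 0.99, and Retnla, at 0.91, were closest to the value of Ccl22 and were named after their values were seen. The genes with the highest mean signal over both arrays, Chil3 and Mmp12, had differences of 0.066 and 0.17, and both were below 0 when centred on the spike-in RNA, as was Chil3 after a loess on the signal level. Mrc1, the gene of the mannose receptor CD206 and also named after its value was seen, was lower with -0.34.

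**Figure D3:**
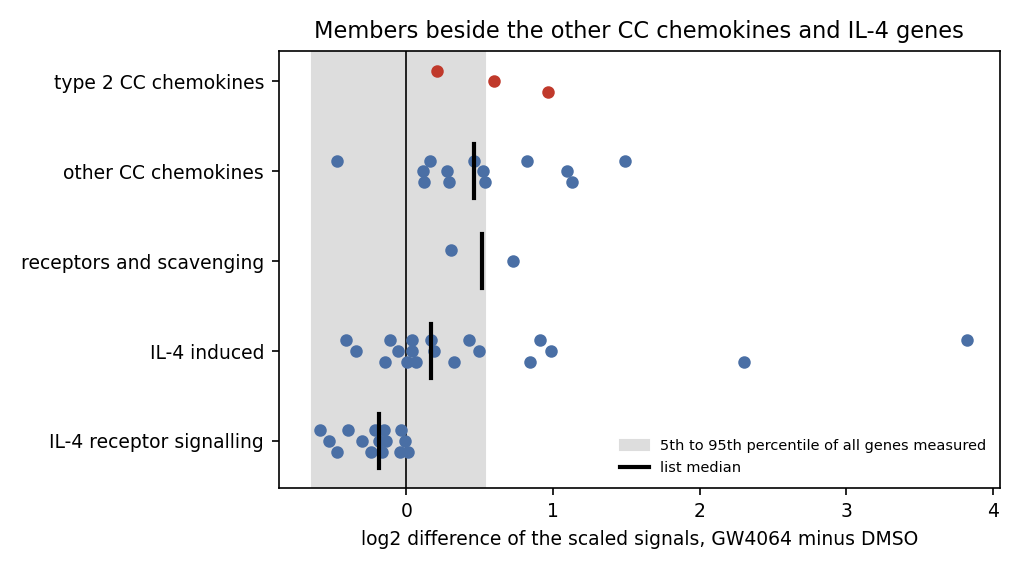
Log2 difference (GW4064 minus DMSO, x axis) of each measured gene, 1 point per gene, for the type 2 CC chemokines (red) and for 4 lists of related genes (blue), with the median of each of the 4 lists as a black bar and the 5th to 95th percentile of all genes measured (-0.65 to 0.53) in grey. Ccl17 lies to the right of the grey band and Ccl24 inside it. Ccl22 also lies to the right, but it passed the filter only through the GW4064 array and was 0.28 with normexp. Of IL-4 receptor signalling 14 of 15 genes lie to the left of 0, beside 6520 of all 13530 genes measured.

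RNA came from whole cultures, in which fewer cells of a type and less RNA per cell cannot be told apart. Macrophage markers were well above background, with Csf1r at signals of 169338 and 161892 on its brightest probe and Adgre1 at 53331 and 45282. The summed signal of 7 macrophage markers was 277082 with DMSO and 268050 with GW4064, and 5 were higher and 2 lower, of which the 5 were below 0 when centred on the spike-in RNA. Of all 13530 genes measured 6984 were higher and 6520 lower. Summed signals here and in the next paragraph are not scaled between the arrays, whose 75th percentiles were 1209 with DMSO and 1265 with GW4064. Ccl17 and Ccl22 are also products of dendritic cells. Of 8 markers of that cell type 5 were measured, 3 of them lower, and Cd209a, Xcr1 and Clec9a were not well above background. Their summed signal, nearly all of it from Itgax, was 186754 and 159334. Flt3 was at least 4.94-fold higher, with a bound of 2.31 on the log2 scale and 3 other 8-fold differences within 300 µm. This came from 1 of its 2 probes, well above background with GW4064 only. Zbtb46 was also higher, with 0.44 as the mean of 2 probes (0.34 and 0.55) and 2 such differences nearby. Not both of these probes were well above background with DMSO. Itgax had -0.30, Fscn1 -0.79 and Ccr7 -0.60. Zbtb46 and Ccr7 were named after their values were seen, to give all 5. The part of such cells in the values of Ccl17 and Ccl22 was not tested.

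Ccl11 is a product of fibroblasts, and markers of stromal cells were present and mostly lower with GW4064. Of 8 markers 7 were measured and 6 were lower, beside 6520 of all 13530 genes measured. The summed signal was 36314 with DMSO and 20316 with GW4064. The brightest were Sparc (-0.80) and Col1a2 (-0.99), and Lum was not well above background. The 1 higher marker, Pdgfra, named after its value was seen, had 0.065 and was -0.13 centred on the spike-in RNA. Ccl11 itself was at background on both arrays. Of 7 markers of mast cells and basophils, which are among the sources of Ccl1, Cpa3, Mcpt8, Cma1, Fcer1a and Ms4a2 were not well above background, and Tpsb2 and Gata2 had differences of 0.51 and 0.17, the second being -0.016 centred on the spike-in RNA. Their summed signal was 178 and 224. Of 5 eosinophil markers, Epx, Prg3 and Il5ra were not well above background, Siglecf had 0.10 (-0.088 centred on the spike-in RNA) and Prg2 had -1.47, with a summed signal of 2371 and 2459. Of 5 T cell markers with a probe, 3 were measured, with differences from -0.15 for Cd4 to 0.18 for Cd3e, of which 2 changed sign with that centring, and the summed signal was 1541 and 1507. Cd3d and Il13 were not well above background. All 5 neutrophil markers measured were lower, from -0.94 to -0.32, beside 6520 of all 13530 genes. Their summed signal was 13407 and 8698. The part of these cells in the values of the members was not tested.

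Over the 10 other ways of processing the arrays, Ccl17 had values between 0.36 and 0.60 and Ccl24 between 0.017 and 0.21. Each had 1 unmarked probe, bright on both arrays and outside the clustered areas, so 4 of the 10 (keeping marked spots, no filter, the brightest probe and leaving out those areas) could not move them. Ccl22 ranged from 0.28 with normexp up to the 2-fold threshold itself, which it just reached after a loess and in no other setting. Its direction was in part set by the filter, which it passed only through the GW4064 array, and 3 of the settings could not move it. The smallest value of Ccl22 came from the normexp background correction with an offset of 50, which adds a constant to every signal and so draws dim probes together. That correction also lowered the number of genes past 2-fold, from 276 to 72 higher and from 367 to 64 lower genes.

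**Figure D4:**
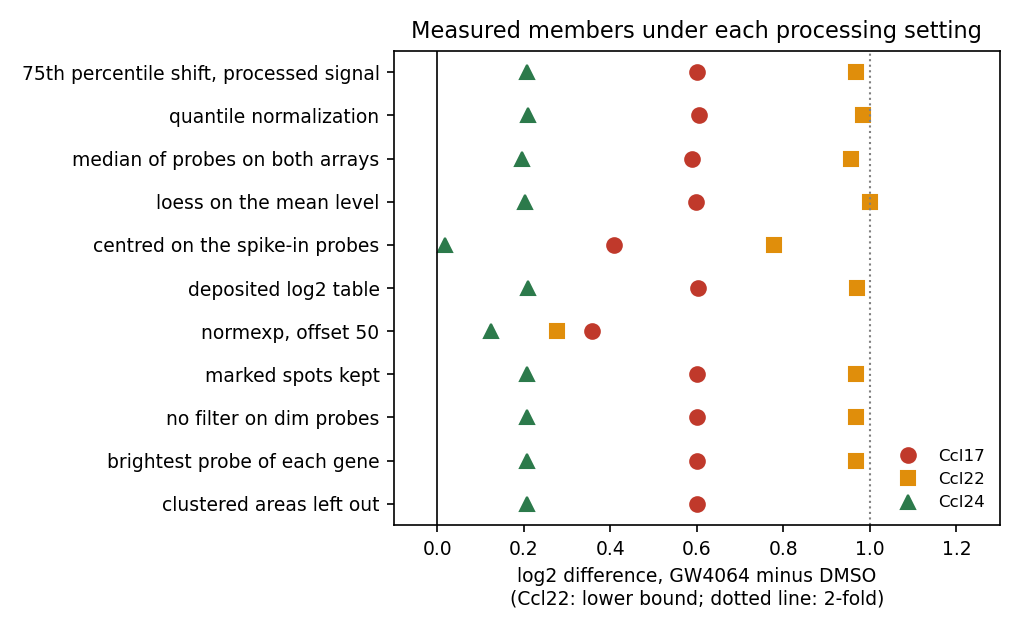
Log2 difference (GW4064 minus DMSO, x axis) of Ccl17, Ccl22 and Ccl24 under each of the 11 processing settings (y axis). The axis label calls Ccl22 a lower bound, but its main value of 0.97 is the plain difference. The points lie to the right of 0, the spike-in centring shifts all 3 genes to the left by the same amount, and the normexp correction moves Ccl22 most, from 0.97 to 0.28, below Ccl17 at 0.36. Ccl22 has no point where clustered areas of the slide were left out.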

How the data were processed

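The authors deposited the Feature Extraction 10.7.1.1 output of 2 Cy3 arrays (1 per group, designed on mm9), with spot intensities already background-subtracted and detrended but not scaled between arrays, and a log2 table of both. The deposited log2 differences matched those computed here for all 39200 probes within 0.001 after an offset of 0.0022, so the table holds the same scaling with an unknown centring per probe, with column medians of 0.035 and -0.051. Here, spots marked non-uniform or as population outliers were dropped, log2 intensities had the 75th percentile of their array subtracted, and copies were averaged. Some probes had under 50% of their spots well above background on 1 array only. Their value there was replaced by the lowest signal well above background if that was higher. The difference is then called a bound, although some signals without that mark lay above this floor. Probes dim on both arrays were left out (23749 remained). A gene is the mean of its remaining probes, named through RefSeq accessions of GRCm38.p6 (26439 probes matched). Members and lists were chosen with earlier results of these data known. Named genes are the members, the receptor list, all CC chemokines, and in other lists those 2-fold different and the 2 of highest mean signal, with others marked in the text. SDs between copies are medians over the 30 probes printed 10 times nearest in level. The steps were tested on simulated data. No coordinates or sequences are given, since the array's build differs from the annotation used and no sequence source was used here. Normexp ran in limma 3.58.1 under R 4.3.3, the loess in statsmodels 0.14.6, and all else in Python 3.11.15 with pandas 2.3.3 and numpy 2.4.6. Alternatives were other scalings, background correction, filters, thresholds and probe summaries. Immunoblots, flow cytometry and qPCR were not analysed here.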

Additional observations from a re-analysis of the deposited data

How the results depend on the processing

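No paired analysis was possible because each group has 1 array. Quantile normalization, centring on the median, loess and the deposited table moved no measured member by more than the SD between copies. Centring on the spike-in RNA gave 0.41 for Ccl17 and 0.017 for Ccl24, and normexp gave 0.36 for Ccl17 and 0.28 for Ccl22. Without the areas of clustered large differences Ccl22 had no value. Without a filter on dim probes Ccl1 had -2.12 and Ccl11 -0.13, from spots not well above background. The causes were not tested, apart from the shift that spike-in centring applies to every gene. Centred that way, list medians were -0.022 for IL-4 induced genes, -0.38 for IL-4 receptor signalling, 0.27 for the other CC chemokines and 0.33 for receptors and scavenging. Centred on the spike-in RNA 211 genes were 2-fold or more higher and 522 lower, against 276 and 367, and there were 72 and 64 with normexp, 698 and 767 without a filter, and 168 and 202 without the clustered areas. At 1.5-fold they numbered 594 and 752, and at 4-fold 65 and 79. Depth is not defined for arrays, and Ccl1, Ccl11 and the DMSO level of Ccl22 are limited by their signal over background.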
